A study of Homo sapiens with 18 samples.

Results

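TFRC, the gene of transferrin receptor 1, and 9 other genes that handle iron in the cell were followed in human BE(2)-m17 neuroblastoma cells with and without overexpression of the drug exporter ABCC1. The list held 10 gene symbols, namely TFRC, STEAP3, SLC11A2, FTH1, FTL, NCOA4, SLC40A1, ACO1, IREB2 and FBXL5, out of 57905 Ensembl genes in the count files. TFRC was selected on its measured counts, which were higher in ABCC1-overexpressing cells in all 3 experiments, so its values in that comparison are given as a description and without a test. The other genes were listed for their role in iron handling. A total of 9 of the 10 genes could be matched to a row of the files and all 9 passed the filter on low counts in each experiment, while NCOA4, the cargo receptor that delivers ferritin to the lysosome, was not analysed here.

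BE(2)-m17 is an adherent line from a human neuroblastoma. Both lines compared carried the amyloid precursor protein gene on a hygromycin vector, pSBbi-Hyg-APP. The ABCC1-overexpressing cells also carried a codon-optimized wild-type ABCC1 on pSBbi-Pur, and the empty vector control cells carried pSBbi-Pur with no insert. The vectors had been inserted with the Sleeping Beauty transposase and the cells had been selected with both antibiotics, so each line is a stably selected transfectant and not a set of independent clones. Cells were plated weekly, 14000000 per well in 10% serum, the medium was changed daily, and RNA was taken on day 4. Each of 3 experiments had 3 libraries per line, 18 in all. Experiment 1 was made with a poly(A) selecting kit, and experiments 2 and 3, which were taken as cryopreserved and newly transfected cells, were made with a total RNA kit.

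Cells take up iron when transferrin binds TFRC at the surface and is carried into endosomes, where STEAP3 reduces the iron and SLC11A2 moves it into the cytosol. Iron that is not used is stored in ferritin, built from FTH1 and FTL chains, and SLC40A1 (ferroportin) is the only known iron exporter of vertebrate cells. The iron regulatory proteins ACO1 (IRP1) and IREB2 (IRP2) bind hairpins called iron-responsive elements when iron is scarce. An element in the 5′ untranslated region (UTR) blocks translation of the mRNA, whereas the elements in the 3′ UTR of TFRC protect its mRNA from decay, and FBXL5 marks IREB2 for degradation when iron is plentiful.

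The elements set the listed genes apart in sequence. The transcripts were searched on their own strand for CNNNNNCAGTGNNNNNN, a bulged C, 5 bases, the loop CAGTGN and 5 bases that pair with the first 5, with G-T pairs allowed. TFRC held 4 such elements in its 3′ UTR, while FTH1, FTL and SLC40A1 each held 1 in the 5′ UTR. Among 1 transcript per protein-coding gene of GENCODE 29, the motif was found in 21 of 18259 5′ UTRs (0.115%) and in 104 of 18853 3′ UTRs (0.552%). These 17 bases with 6 on each side are given here because they are the sequences by which the regulators read these mRNAs, with the bulged C and the loop in capitals.
FTH1 5′ UTR, chr11:61967574-61967602, minus strand: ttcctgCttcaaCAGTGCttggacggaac
FTL 5′ UTR, chr19:48965335-48965363, plus strand: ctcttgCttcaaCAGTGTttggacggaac
SLC40A1 5′ UTR, chr2:189580661-189580689, minus strand: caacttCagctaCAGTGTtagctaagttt
TFRC 3′ UTR element 1, chr3:196050979-196051007, minus strand: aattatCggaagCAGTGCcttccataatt
TFRC 3′ UTR element 2, chr3:196050575-196050603, minus strand: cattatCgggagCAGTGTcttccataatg
TFRC 3′ UTR element 3, chr3:196050510-196050538, minus strand: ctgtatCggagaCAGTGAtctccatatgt
TFRC 3′ UTR element 4, chr3:196050463-196050491, minus strand: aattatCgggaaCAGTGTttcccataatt
These positions are a match to the GRCh38 build, and the bases are written as DNA from 5′ to 3′ of the mRNA. The loop begins with CAGTG in every element by the rule of the search and ends in C, T or A. The motif was not in the annotated UTRs of the other listed genes in the transcripts searched. This does not show that these genes lack an element, since only 1 transcript per gene was searched and all 5 pairs were required. EPAS1, whose mRNA has a known element, was not found by the search either. A match describes the letters only.

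The deposited counts use the GRCh37 build, in which TFRC lies at chr3:195754054-195809060 on the minus strand, FTH1 at chr11:61727190-61735132 on the minus strand, FTL at chr19:49468558-49470135 on the plus strand and ACO1 at chr9:32384618-32454767 on the plus strand. The counting ignored strand. BEST1 on the opposite strand shares 1267 of the 2030 exon bases of FTH1, which is 62.4%, and STEAP3-AS1 shares 566 of the 4713 exon bases of STEAP3, so reads of these pairs cannot be told apart. Reads that map to several places were not counted, which bears on FTH1 and FTL because of their processed pseudogenes. The 25 annotated copies of FTH1, which are counted apart from the gene, had counts that came to between 0.333% and 0.576% of those of the gene in experiment 1, and up to 13.8% in experiment 3. For the 16 copies of FTL the ratio was at most 0.123% and 12.7% in the same experiments.

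The libraries held 8866994 to 57937653 counted read pairs, most in experiment 1 and fewest in experiment 3. The control libraries of experiments 2 and 3 held more reads at genes that these cells are not known to use. Over 356 olfactory receptor genes the level was 0.581 ± 0.0904 CPM (counts scaled to 1e6 per library) per kb of exon in the control cells of experiment 2 and 0.303 ± 0.149 in the ABCC1-overexpressing cells (SD, n = 3), against 0.00502 ± 0.000425 and 0.00404 ± 0.000313 in experiment 1. In experiment 3 it was 1.58 ± 0.0911 and 1.25 ± 0.155. With library sizes scaled by the trimmed mean of M-values (TMM) over all genes, the 9442 genes with at least 10 CPM in every library of experiment 1 had a median log2 fold change of 0.0046 in experiment 1, 0.26 in experiment 2 and 0.14 in experiment 3. Fold changes of the repeat experiments are therefore also given after TMM scaling over these 9442 expressed genes alone, a choice made after the data had been seen. In experiment 1 the third ABCC1-overexpressing library stood apart from the other two, and of the noradrenergic markers CHGA stood at 6978 CPM, MYCN at 2886 CPM and HAND2 at 841 CPM in the control cells.

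Per kb of exon, FTL was the most abundant of the 9 mRNAs in every group and FTH1 the next. In the control cells of experiment 1 FTL reached 969 ± 41.5 CPM per kb (SD, n = 3). TFRC ranked 3 there with 18.2 ± 0.656 CPM per kb, above IREB2 with 16.1 ± 0.311, and the ranges of these neighbours did not overlap. SLC40A1 was lowest in every group, with 1.62 ± 0.0168 CPM per kb in the same cells. In the control cells of experiments 2 and 3, FBXL5, TFRC and IREB2 followed each other in that order with overlapping libraries. In the ABCC1-overexpressing cells TFRC ranked 3 in each experiment, and its lowest library stood above the highest library of the next gene. Levels of the members are scaled within an experiment, so their order is compared only within one.

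**Figure D1:**
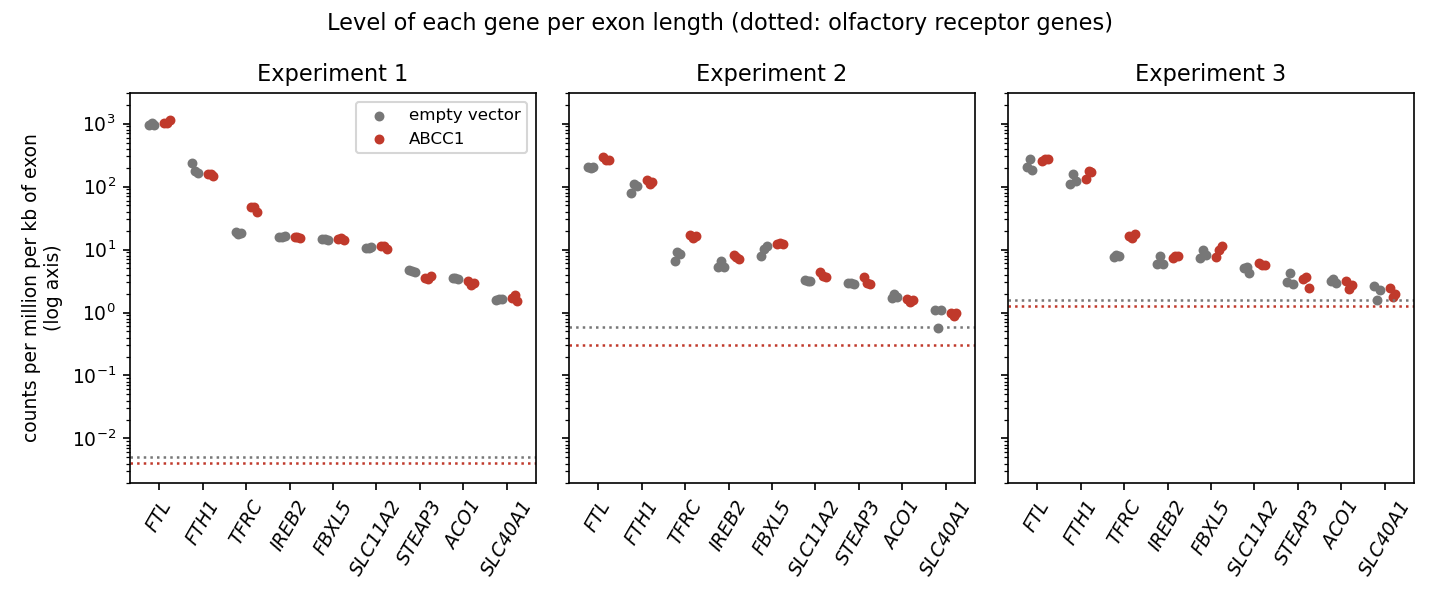
Level of the 9 iron handling genes in each library, in CPM per kb of exon on a log axis, for empty vector control cells (grey) and ABCC1-overexpressing cells (red) of experiments 1 to 3. Points are libraries and dotted lines are the mean level of 356 olfactory receptor genes in the line of that colour; TFRC is the gene whose red points lie clearly above the grey ones in all 3 panels, and SLC40A1 lies near the dotted lines in experiments 2 and 3.

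TFRC mRNA was about double in ABCC1-overexpressing cells in each experiment. In experiment 1 the control libraries had 149, 139 and 142 CPM and the ABCC1-overexpressing libraries 377, 367 and 305 CPM. All ABCC1-overexpressing libraries were above all controls, and the lowest of them was the library that stood apart. The fitted fold was 2.43, a log2 fold change of 1.28 ± 0.07 (SE, n = 3 per group). In experiment 2 TFRC had 51.0, 71.9 and 66.6 CPM in the controls and 133, 120.3 and 128 CPM with ABCC1. Again the groups did not overlap, and the log2 fold change was 1.01 ± 0.17. In experiment 3 the controls had 59.7, 65.1 and 62.8 CPM and the ABCC1-overexpressing libraries 131, 122 and 140.3 CPM, with no overlap and a log2 fold change of 1.07 ± 0.18. These values rested on 607 to 21311 read pairs per library. TFRC lay at 13.8 and 53.2 times the level of the olfactory receptor genes in the control and ABCC1-overexpressing cells of experiment 2. In experiment 3 it lay at 5.02 and 13.2 times. The part of this background was not tested beyond a fit with background reads as a covariate.

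**Figure D2:**
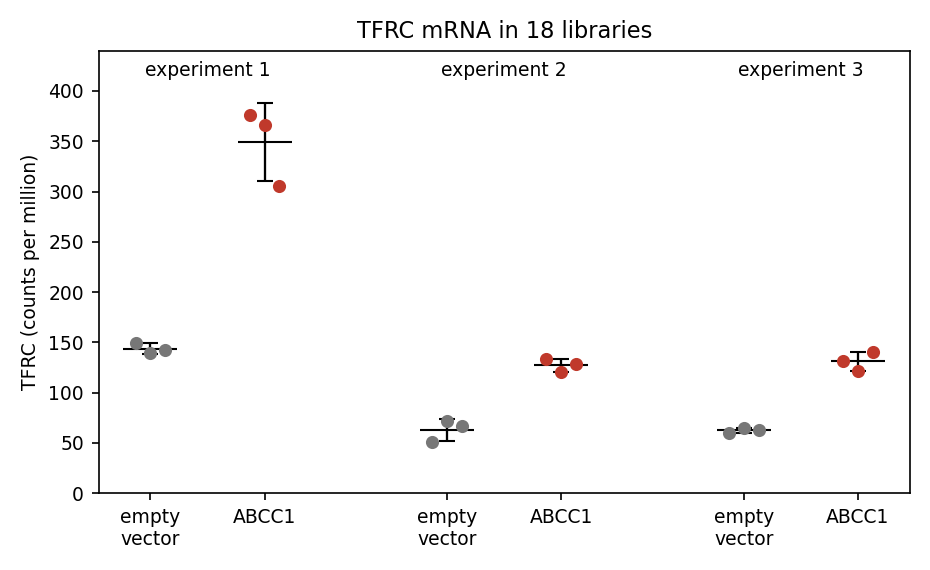
TFRC in CPM in each of the 18 libraries by experiment and line, with the mean and the SD of each group of 3 (black). In every experiment the 3 ABCC1-overexpressing libraries lie above the 3 empty vector control libraries, and levels are scaled within each experiment.

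The TFRC difference stood near the top of all genes, at the percentile 99.2, 99.0 and 99.3 of the log2 fold changes of experiments 1, 2 and 3. Since the gene was chosen for this, the ranks are a description. After scaling over the expressed genes the log2 fold change was 1.28 in experiment 1, 0.75 in experiment 2 and 0.92 in experiment 3. Over the 18 libraries fitted together it was 1.19 ± 0.09, and 0.98 ± 0.07 after that scaling. Proliferation genes moved alongside in experiment 1, where 10 of 14 listed genes fell and none rose (17.9% of all genes tested rose and 19.7% fell). Without the library that stood apart 10 fell and 1 rose, where 22.4% of all genes tested rose and 23.8% fell. In experiment 3 none of the 14 was called by edgeR, with 5 at an unadjusted p under 0.05, and after scaling over the expressed genes 7 fell and 1 rose, where 5.32% of all genes were called. In experiment 2 none was called by edgeR either, with 1 at an unadjusted p under 0.05, and 1 fell after that scaling, where 0.554% of all genes fell. In the joint fit 1 of the 14 fell, against 3.72% of all genes, and 11 fell after that scaling, against 11.1%. The summed level of these 14 genes ran from 4248 to 4382 CPM in the controls of experiment 1 and from 3720.3 to 3947 CPM with ABCC1, and their part in the TFRC difference was not tested.

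Because a ratio of 2 genes within a library does not depend on how libraries are scaled, TFRC was also set against each of the other 8 genes. TFRC was chosen for its rise and is the numerator of every ratio, so the ratios are a description. The ratio of TFRC to IREB2, per kb of exon, was 1.13 ± 0.0559 in the controls and 2.83 ± 0.237 with ABCC1 in experiment 1 (SD, n = 3). It was 1.40 ± 0.191 and 2.13 ± 0.136 in experiment 2, and 1.24 ± 0.160 and 2.17 ± 0.161 in experiment 3. The 3 ABCC1-overexpressing libraries lay above the 3 controls for all 8 genes in every experiment. The ratio of the group means ran from 2.24 for FTL to 3.09 for STEAP3 in experiment 1, from 1.49 for FTL to 2.33 for ACO1 in experiment 2 and from 1.70 for FTL to 2.43 for ACO1 in experiment 3. In experiment 2 the level of the olfactory receptor genes equalled 32.3% of the ACO1 level in the controls and 19.5% with ABCC1. It equalled 62.8% and 31.9% for SLC40A1, and 7.25% and 1.88% for TFRC. The part of this background in the ratios was not tested.

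**Figure D3:**
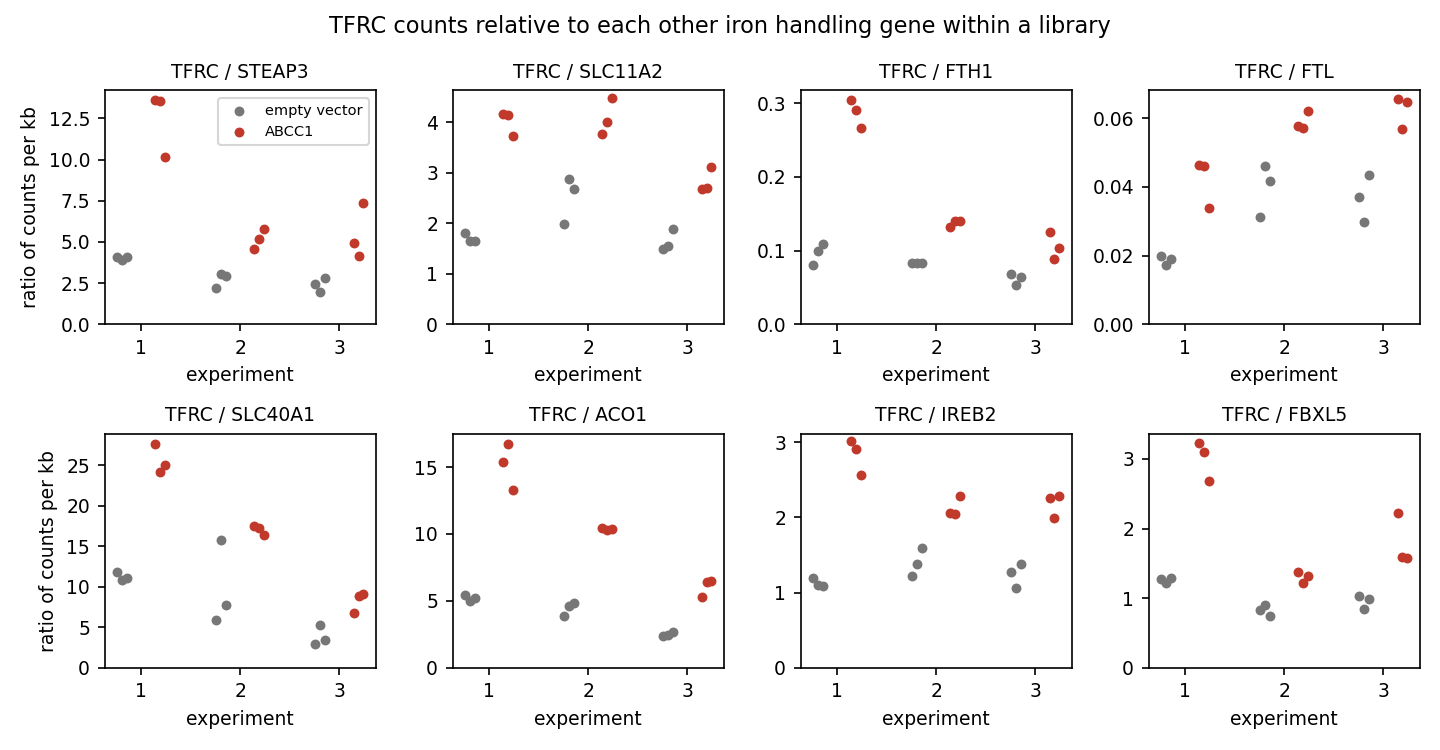
Counts of TFRC per kb of exon divided by those of each of the other 8 iron handling genes within the same library, by experiment, for empty vector control cells (grey) and ABCC1-overexpressing cells (red). Each point is a library, and in all 8 panels the red points of an experiment lie above its grey points.

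The partners of TFRC in uptake had smaller log2 fold changes than TFRC in each experiment, and those differences from TFRC were not tested. STEAP3, the ferrireductase of the endosome, fell in experiment 1, where the controls had 21.9, 21.5 and 20.7 CPM and the ABCC1-overexpressing libraries 16.5, 16.1 and 18.002 CPM. The groups did not overlap, and the log2 fold change was -0.34 ± 0.06 (adjusted p = 0.00196 by the quasi-likelihood test of edgeR, adjusted after Benjamini and Hochberg over all genes, as throughout), a call lost with a spread shared across all 18 libraries (-0.23, adjusted p = 0.421). In experiment 2 STEAP3 had 13.6 to 14.04 CPM in the controls and 13.3 to 17.5 CPM with ABCC1, a log2 fold change of 0.11 ± 0.17 that became -0.17 ± 0.17 after scaling over the expressed genes. In experiment 3 it had 13.3 to 19.8 CPM and 11.4 to 17.6 CPM, a log2 fold change of -0.09 ± 0.19 that became -0.21 ± 0.21 after that scaling. Neither repeat experiment gave a call, with adjusted p = 0.736 and 0.870. STEAP3 lay at 5.04 and 10.4 times the level of the olfactory receptor genes in the control and ABCC1-overexpressing cells of experiment 2 and at 2.13 and 2.53 times in experiment 3. With background reads as a covariate its log2 fold change in experiment 2 was -0.15, not called. The part of this background in its values was not tested further.

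SLC11A2, also called DMT1, which carries iron out of the endosome, had 104, 105 and 107 CPM in the controls of experiment 1 and 113, 110.2 and 102 CPM with ABCC1, so the groups overlapped (log2 fold change 0.04 ± 0.05, adjusted p = 0.522). In experiment 2 the 3 ABCC1-overexpressing libraries, at 35.8 to 43.9 CPM, lay above the controls at 31.0 to 32.0 CPM, with a log2 fold change of 0.32 ± 0.15 and adjusted p = 0.235. Experiment 3 gave 56.1 to 60.9 CPM against 41.7 to 52.3 CPM, again without overlap, and a log2 fold change of 0.27 ± 0.16 with adjusted p = 0.457. After scaling over the expressed genes these values came to 0.04 and 0.13. SLC11A2 lay at 5.50 and 13.1 times the level of the olfactory receptor genes in the control and ABCC1-overexpressing cells of experiment 2. In experiment 3 it lay at 3.09 and 4.69 times. The part of this background was not tested beyond a fit with background reads as a covariate.

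Neither ferritin chain was called in any experiment in the fit with TMM over all tested genes, though other settings gave calls. FTH1, the chain that oxidises iron, had 479.6, 361 and 335 CPM in the controls of experiment 1 and 318, 325 and 296 CPM with ABCC1. All 3 ABCC1-overexpressing libraries were below the controls, but the first control library was far above the other two, and the log2 fold change of -0.33 ± 0.12 had adjusted p = 0.0534. The value was -0.33 with adjusted p = 0.0477 among genes with 10 counts in every library, and -0.16 with adjusted p = 0.0559 without that first control library. Without the third control library it was -0.42 with adjusted p = 0.0168, and blocking on replicate number gave -0.31 with adjusted p = 0.0196. In experiment 2 FTH1 had 157, 224 and 205 CPM in the controls and 259, 220.3 and 237 CPM with ABCC1, and in experiment 3 it had 225, 318 and 251 CPM and 269, 354 and 347 CPM. The groups overlapped in both, and the log2 fold changes were 0.29 ± 0.18 and 0.29 ± 0.20. They came to 0.03 and 0.15 after scaling over the expressed genes. With background reads as a covariate FTH1 turned to -0.23 in experiment 3, not called. Without the second control library it was 0.45 there (adjusted p = 0.0394 in edgeR).

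FTL, the light chain, had 831, 892 and 828 CPM in the controls of experiment 1 and 902, 887 and 1000.05 CPM with ABCC1. The groups overlapped narrowly and the log2 fold change was 0.13 ± 0.06 with adjusted p = 0.0919, and 0.14 with adjusted p = 0.00723 with no filter on low counts. In experiment 2 the controls had 182, 174 and 178 CPM and the ABCC1-overexpressing libraries 256, 235 and 230.5 CPM, which did not overlap, with a log2 fold change of 0.44 ± 0.17 and adjusted p = 0.152, against 0.55 and adjusted p = 0.0125 in DESeq2. In experiment 3 the controls had 179, 244 and 161 CPM and the others 222, 238 and 242 CPM, overlapping, with 0.26 ± 0.19. With background reads as a covariate FTL turned to -0.065 there, not called. Without the second control library it was 0.47 (adjusted p = 0.0214 in edgeR). FTL, after scaling over the expressed genes, stood at 0.13, 0.16 and 0.14 in experiments 1 to 3, none of them called.

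SLC40A1, the exporter, was low throughout. It had 6.91 to 7.04 CPM in the controls of experiment 1 and 6.70 to 8.33 CPM with ABCC1, a log2 fold change of 0.09 ± 0.09 with adjusted p = 0.481. In the repeat experiments its groups overlapped as well, with 2.50 to 11.3 CPM over both lines. There its level per kb was only 1.37 to 3.13 times that of the olfactory receptor genes, against 322 and 429 times in the control and ABCC1-overexpressing cells of experiment 1. The SLC40A1 log2 fold change was 0.04 ± 0.35 in experiment 2 and -0.08 ± 0.23 in experiment 3, neither called. With background reads as a covariate it was 0.54 in experiment 3, not called either (adjusted p = 0.729 in edgeR). Whether a difference in SLC40A1 lay under this background was not tested further.

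ACO1 was the regulator called in experiment 1. It encodes IRP1, which is cytosolic aconitase when it holds an iron-sulphur cluster and binds iron-responsive elements when it does not. In experiment 1 it had 26.3, 26.7 and 26.02 CPM in the controls and 23.4, 20.9 and 21.9 CPM with ABCC1. The groups did not overlap and ACO1 fell by 0.25 ± 0.06 on the log2 scale (adjusted p = 0.00715), a call lost with a spread shared across all 18 libraries (-0.15, adjusted p = 0.601). In experiment 2 the controls had 12.6, 14.9 and 13.2 CPM and the others 12.2, 11.1 and 11.9 CPM, all lower, with a log2 fold change of -0.21 ± 0.18 and adjusted p = 0.50. In experiment 3, with 23.8, 25.5 and 22.6 CPM against 23.6, 18.1 and 20.7 CPM, the groups overlapped and the value was -0.20 ± 0.17 with adjusted p = 0.610. After scaling over the expressed genes the values were -0.25, -0.47 and -0.34, and the first of them was called. ACO1 lay at 3.09 and 5.14 times the level of the olfactory receptor genes in the control and ABCC1-overexpressing cells of experiment 2, and at 2.01 and 2.20 times in experiment 3, so the background made up a larger share of its level in the controls than with ABCC1. The part of this background in these values was not tested beyond a fit with background reads as a covariate.

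IREB2, the gene of IRP2, had 172 to 178 CPM in the controls of experiment 1 and 163 to 173 CPM with ABCC1 (log2 fold change -0.04 ± 0.04, adjusted p = 0.406). FBXL5, the subunit of the ubiquitin ligase that targets IRP2, had 63.7 to 67.8 CPM and 65.9 to 68.7 CPM (0.03 ± 0.04, adjusted p = 0.644). Both overlapped between the lines. In experiment 2 the ABCC1-overexpressing libraries were all higher for IREB2 (77.0 to 88.5 against 57.2 to 71.7 CPM) and for FBXL5 (55.9 to 57.2 against 35.6 to 51.6 CPM). The adjusted p-values there were 0.165 and 0.224, and after scaling over the expressed genes the log2 fold changes of 0.40 and 0.35 came to 0.13 and 0.09. In experiment 3 both overlapped.

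Counted together, 2 of the 8 genes besides TFRC passed the test in experiment 1, STEAP3 and ACO1, both lower, where 37.6% of all 16995 genes tested passed. The share among the members is thus no larger than among all genes. Without the library that stood apart, SLC11A2 was called as well (0.09, adjusted p = 0.0413 in edgeR), STEAP3 and ACO1 were still called lower at -0.39 and -0.24, and TFRC was 1.37. In that fit 46.2% of all genes tested were called, 22.4% higher and 23.8% lower. The median log2 fold change of the 8 genes was -0.0080 in experiment 1, 0.30 in experiment 2 and 0.21 in experiment 3, beside 0.0074, -0.19 and -0.09 over all genes tested and 0.0046, 0.26 and 0.14 over the expressed genes. The median of the 8 was -0.011, 0.032 and 0.067 after scaling over the expressed genes. In experiment 2 none of the 8 passed, with 1.7% of all genes called (1.25% higher and 0.458% lower). Of these 8, 4 had an unadjusted p below 0.05, and DESeq2 called 2, FTL and IREB2, where it called 2727 of all 34091 genes tested. In experiment 3 none passed either, with 2.8% of all genes called (2.03% higher and 0.767% lower), and none had an unadjusted p below 0.05 or was called by DESeq2. Libraries of the 2 lines did not overlap for 3 of the 8 genes in experiment 1, all lower with ABCC1 (25.7% of all genes), for 4 higher (13.5%) and 1 lower (16.4%) in experiment 2, and for 1 higher (8.58%) and none lower (10.9%) in experiment 3. Without the second control library of experiment 3, FTH1 (0.45, adjusted p = 0.0394) and FTL (0.47, adjusted p = 0.0214) were called higher there by edgeR. In that fit 2759 of all 39046 genes tested were called.

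**Figure D4:**
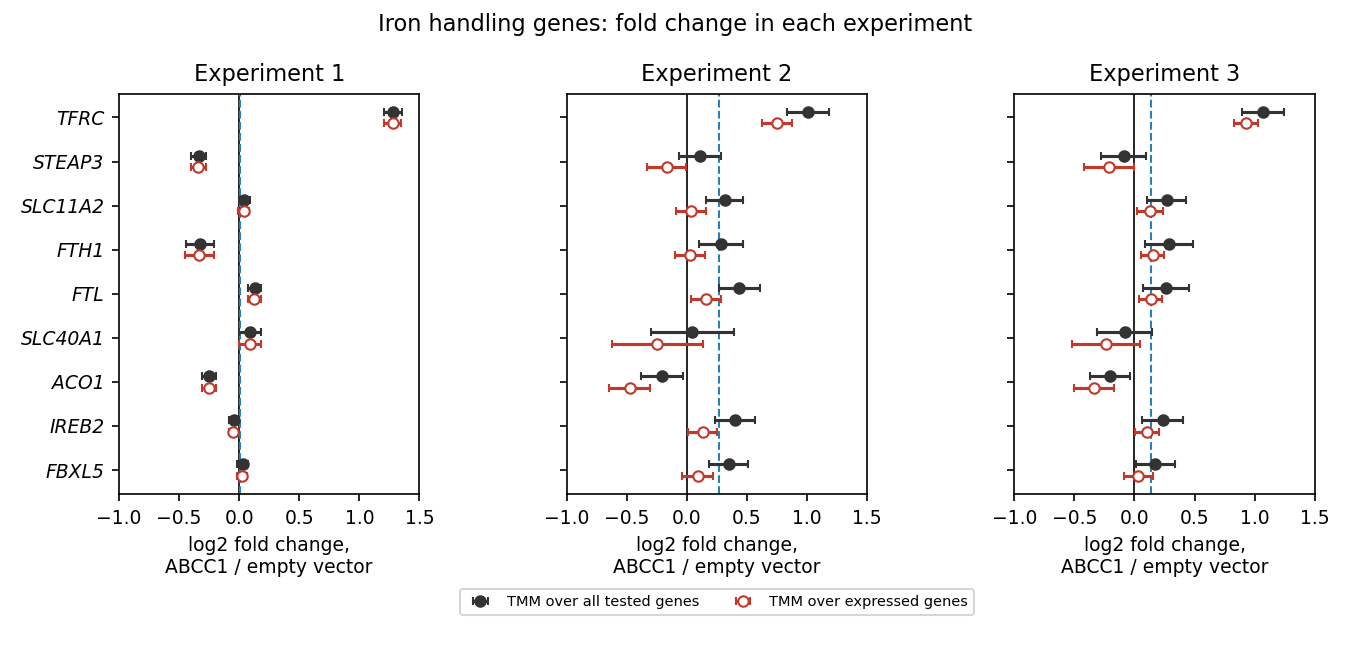
Log2 fold change of ABCC1-overexpressing over empty vector control cells with its standard error for the 9 iron handling genes in experiments 1 to 3, after TMM scaling over all tested genes (filled) and over expressed genes (open). The dashed line is the median of the 9442 expressed genes under the first scaling; TFRC lies between 0.75 and 1.28, while the other 8 genes lie between -0.47 and 0.44.

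The common effect of ABCC1 over the 3 experiments was fitted in all 18 libraries. FTL (0.34 ± 0.10, adjusted p = 0.0137), SLC11A2 (0.27 ± 0.08, adjusted p = 0.0244) and IREB2 (0.26 ± 0.09, adjusted p = 0.0495) were called higher on the log2 scale by edgeR, where 12.4% of all genes tested were called, 8.73% higher and 3.72% lower, and 35.9% of the 9442 expressed genes were called higher. The expressed genes had a median log2 fold change of 0.20. Of 24 alternatives, FTL was called in 23, SLC11A2 in 18 and IREB2 in 5, with IREB2 lost among others in DESeq2 (adjusted p = 0.0562) and with relative log expression (RLE) size factors (adjusted p = 0.132). After scaling over the expressed genes none of these 3 was called, with log2 fold changes of 0.13, 0.06 and 0.05 and adjusted p = 0.0788, 0.494 and 0.484. ACO1 was then called lower, by -0.36 ± 0.08 with adjusted p = 0.00181, where 14.5% of genes were called, against -0.16 ± 0.09 and adjusted p = 0.250 in the fit over all genes. ACO1 was also called lower with DESeq2, with RLE size factors and among genes with 10 counts in every library. STEAP3 was called lower in the last of these settings (-0.21, adjusted p = 0.0438), against -0.05 ± 0.10 with adjusted p = 0.817 over all genes and -0.25 ± 0.09 with adjusted p = 0.0531 after scaling over the expressed genes. FBXL5 was not called (0.25 ± 0.09, adjusted p = 0.0693), nor after scaling over the expressed genes (0.04, adjusted p = 0.684). It was called higher in 2 of the 24 alternatives. These were the fits without the second control library of experiment 3 (adjusted p = 0.0193) and without its first ABCC1-overexpressing library (adjusted p = 0.0157). The values of TFRC in the joint fit under both scalings, 1.19 and 0.98, are descriptions.

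Whether the effect of ABCC1 differed between experiments was tested by an interaction term. None of the 8 genes was called by edgeR, with 1.19% of all genes called, and DESeq2 called none. FTH1 was the 1 gene with an unadjusted p below 0.05, and its adjusted p was 0.525 in edgeR. The FTH1 effect in experiments 2 and 3 exceeded that of experiment 1 by 0.54 and 0.60 on the log2 scale. A p that misses the threshold does not show that the effects were equal.

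Newly transfected cells of experiment 3 were compared with the cryopreserved cells of experiment 2 in each line, a comparison that was not used to choose TFRC. FBXL5 fell between them in both lines. Its log2 fold change was -0.96 ± 0.18 in the controls (adjusted p = 1.16e-04) and -1.10 ± 0.18 in ABCC1-overexpressing cells (adjusted p = 1.23e-05), where 14% and 34.4% of all genes tested were called. In the controls 1.8% were higher and 12.2% lower, and with ABCC1 18.5% were higher and 15.9% lower. Of the 9442 expressed genes, 43.7% were called lower in the controls and 58.2% with ABCC1. After scaling over the expressed genes FBXL5 remained lower, by -0.50 ± 0.13 (adjusted p = 0.00678) and -0.53 ± 0.13 (adjusted p = 0.00222), where 19.2% and 46.2% of genes were called. TFRC was called lower in experiment 3, by -0.77 ± 0.17 in the controls (adjusted p = 0.00121) and by -0.68 ± 0.17 with ABCC1 (adjusted p = 0.00249), while the expressed genes had medians of -0.44 and -0.54. After scaling over these genes TFRC was not called, with -0.30 ± 0.11 (adjusted p = 0.0610) and -0.09 ± 0.11 (adjusted p = 0.485).

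The other genes showed the same dependence in this comparison. FTL and IREB2 were called lower in both lines and STEAP3 in the ABCC1-overexpressing cells, but none of these calls was made after scaling over the expressed genes. ACO1 had log2 fold changes of 0.07 and 0.10 that were not called, and became 0.53 (adjusted p = 0.0306) in the controls and 0.70 (adjusted p = 0.00266) with ABCC1 after that scaling. SLC11A2, FTH1 and SLC40A1 were called higher in the ABCC1-overexpressing cells only after that scaling, at 0.44, 0.30 and 0.98. The olfactory receptor genes, scaled within each experiment, stood at 0.581 CPM per kb in experiment 2 and 1.58 in experiment 3 in the controls, and at 0.303 and 1.25 with ABCC1, and the part of this background in the comparison was not tested.

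Genes whose level ran most like that of TFRC were looked for over the 18 libraries, on log2(CPM + 0.1) after the mean of each experiment had been removed. The 5 highest Pearson correlations among 16689 genes belonged to HEY1 (0.98), LRRC8C (0.97), RORB (0.96), KLF12 (0.96) and IFI16 (0.96). HEY1, a transcriptional repressor of the Notch pathway, had 24.2 to 25.1 CPM in the controls of experiment 1 and 53.2 to 55.4 CPM with ABCC1. In experiment 2 it had 5.82 to 7.27 CPM and 10.8 to 13.2 CPM, and in experiment 3 12.3 to 14.5 CPM and 28.3 to 31.1 CPM. The 3 lowest belonged to INSM1 (-0.94), a neuroendocrine transcription factor, TMEM255A (-0.94) and FAIM2 (-0.94). INSM1 had 10.2 to 11.9 CPM in the controls of experiment 1 and 1.24 to 2.19 CPM with ABCC1.

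These correlations follow the difference between the lines, which all 18 libraries share. When the mean of each group was removed instead, so that only the spread among replicates was left, the 5 genes most like TFRC were SCHIP1, INTS6, DMD, LINC00938 and MYSM1, and none of them was among the first 5. Among the iron handling genes the correlation with TFRC after removal of the experiment means was 0.68 for FTL, 0.67 for SLC11A2, 0.57 for IREB2, 0.53 for FBXL5, 0.24 for FTH1, 0.03 for SLC40A1, -0.33 for STEAP3 and -0.70 for ACO1. After removal of the group means the order changed, to 0.63 for FTH1, 0.57 for FBXL5, 0.52 for ACO1, 0.48 for IREB2, 0.16 for SLC11A2, -0.060 for FTL, -0.11 for STEAP3 and -0.32 for SLC40A1, so ACO1, FTL and SLC40A1 changed sign.

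Other genes of iron handling were read from lists. Of 17 further uptake genes, 10 were tested in experiment 1, where 4 rose and 3 fell, and the median log2 fold change was -0.02 against 0.0074 over all genes, of which 17.9% rose and 19.7% fell. The 4 that rose were CYBRD1 (1.01), a ferrireductase, TFR2 (0.50), the second transferrin receptor, LRP1 (0.50) and SLC39A8 (0.28), a metal importer, and the others that fell beside MELTF were LRP2 (-0.62) and SNX3 (-0.17), which sorts TFRC in endosomes. These 6, and the genes given below with a log2 fold change alone, were named after their values had been seen. MELTF, or melanotransferrin, a membrane protein that binds iron, fell in experiment 1 by 0.71 ± 0.08 on the log2 scale (adjusted p = 7.89e-05), from 11.5 ± 0.511 to 7.09 ± 0.537 CPM (SD, n = 3). In the joint fit MELTF was called lower at -0.54 ± 0.09 (adjusted p = 3.40e-05), and at -0.76 after scaling over the expressed genes. In experiments 2 and 3 alone MELTF was not called (-0.62 and -0.50, adjusted p = 0.0693 and 0.0785), whereas after that scaling it was called lower in both (-0.89 and -0.65, adjusted p = 0.0288 and 0.00582), at 2.00 to 3.94 times the level of the olfactory receptor genes. TF, the gene of transferrin, and SCARA5, a ferritin receptor, were called lower in the joint fit too, and TF also in experiment 3 (-0.62, adjusted p = 0.0326), but in experiments 2 and 3 they lay at 1.23 to 1.77 times the level of the olfactory receptor genes and in experiment 1 they were under the filter.

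Among 13 genes of export and hormonal control, 5 were tested in experiment 1, where 1 rose and 4 fell, against 17.9% and 19.7% of all genes tested. FLVCR1, described as a haem exporter and as a choline importer, rose in experiment 1, from 71.0 ± 2.44 to 80.8 ± 2.598 CPM (log2 fold change 0.19 ± 0.05, adjusted p = 0.00869), and was called higher in the joint fit under both scalings at 0.48 and 0.26. ERFE, the hormone erythroferrone, which lowers hepcidin, fell in experiment 1 from 7.05 ± 0.276 to 4.11 ± 0.294 CPM (log2 fold change -0.77, adjusted p = 8.76e-05) and in the joint fit at -0.67. In experiments 2 and 3 ERFE lay at 2.03 to 3.76 times the level of the olfactory receptor genes. BMP2, an inducer of hepcidin, fell in experiment 1 from 0.535 ± 0.0793 to 0.137 ± 0.0596 CPM (log2 fold change -2.02, adjusted p = 0.00123). BMP2 passed the filter on low counts through its control libraries alone, so it could only be called lower. It counts among the 4 that fell. HEPHL1 (-4.09) and SLC48A1 (-0.23) were the other 2 that fell. BMP6 and HJV were called lower only in the joint fit and were under the filter in experiment 1, and in the repeat experiments BMP2, BMP6 and HJV lay within 0.878 to 3.21 times the level of the olfactory receptor genes.

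The storage list held 9 further genes, of which 8 were tested in experiment 1, with 1 higher, PCBP3 (0.19), and 2 lower, PCBP4 (-0.23) and ATG5 (-0.21), a share near the 37.6% called over all genes. PCBP1, an iron chaperone that loads ferritin, rose in experiment 3 (0.65). Of 12 genes that act on TFRC or ferritin mRNA, 2 rose and 3 fell in experiment 1, near the 17.9% and 19.7% over all genes, and the median was 0.07. MYCN (0.45) and ZFP36L2 rose, whereas MYC (-0.47), HIF1A (-0.17) and NFE2L2 (-0.27) fell. ZFP36L2, a protein that binds AU-rich elements in 3′ UTRs and promotes decay, rose in experiment 1 (0.35 ± 0.11, adjusted p = 0.0277) and in experiment 2 (0.80 ± 0.16, adjusted p = 0.0189), the latter with 0.52 and adjusted p = 0.0979 after scaling over the expressed genes. ZFP36, of the same family, was called higher in the joint fit at 0.51 and was not called after that scaling (0.31, adjusted p = 0.187). EPAS1, whose mRNA has a known iron-responsive element, fell in experiment 1 from 1.18 ± 0.197 to 0.522 ± 0.0937 CPM (log2 fold change -1.16, adjusted p = 0.00160). Of 5 mRNAs listed with such an element 4 were tested there, of which 1 rose and 1 fell, or 2 fell after scaling over the expressed genes.

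Haem and iron-sulphur genes are set against 17.9% of all genes tested that rose and 19.7% that fell in experiment 1. Of 12 genes of haem synthesis and breakdown, 2 rose and 1 fell in experiment 1, with a median of 0.02. PPOX (0.41) and UROD (0.27) rose and UROS (-0.19) fell. Of 33 tested genes of iron-sulphur clusters and mitochondrial iron, 3 rose and 4 fell, with a median of 0.01. Besides ABCB6, CIAO3 (0.43) and MMS19 (0.14) rose, and NFU1 (-0.44), CISD2 (-0.25), CIAPIN1 (-0.23) and HSPA9 (-0.18) fell. ABCB6, a mitochondrial porphyrin transporter, rose in experiment 1 from 5.77 ± 0.425 to 9.14 ± 0.331 CPM (0.67 ± 0.08, adjusted p = 0.000155) and in the joint fit at 0.66, which was not called after scaling over the expressed genes (0.45, adjusted p = 0.129). In experiments 2 and 3 ABCB6 lay at 0.570 to 2.91 times the level of the olfactory receptor genes. With TMM over all tested genes, the genes of these lists that edgeR called in experiments 2 and 3 were TF, FLVCR1, PCBP1 and ZFP36L2, each in 1 of the 2. With scaling over the expressed genes, MELTF was called in both and TF in experiment 3, FLVCR1 and ZFP36L2 were called in neither, and experiment 3 had further calls in the export, storage and iron-sulphur lists.

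The motif genes beyond the list gave a wider count. Of 14 other genes with the motif in the 5′ UTR that were tested in experiment 1, 4 rose and 2 fell, and of 89 with it in the 3′ UTR, 15 rose and 27 fell, with medians of 0.03 and -0.04, where 17.9% of all genes tested rose and 19.7% fell. In experiment 2 none of the 18 tested 5′ UTR genes was called and 4 of the 3′ UTR genes rose and 2 fell, and in experiment 3 the counts were 0 of 18, and 4 higher and 4 lower in the 3′ UTR set. Of all genes tested, 1.25% rose and 0.458% fell in experiment 2, and 2.03% and 0.767% in experiment 3. These genes carry only the letters of the motif, so the counts describe the letters.

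Marker genes of other cells were checked because bulk RNA cannot tell fewer cells of a type from less RNA per cell. Erythroid markers summed to 0.372 to 0.758 CPM and macrophage markers to 1.31 to 2.21 CPM over the libraries of experiment 1, with 2 of 6 and 1 of 5 markers at 0 in each group. In experiment 3 they summed to 9.19 to 14.5 CPM and 44.5 to 73.9 CPM. The 1 erythroid gene tested in experiment 1 was not called, and CSF1R (0.71) rose while CD14 (-1.39) fell. Schwann cell and fibroblast markers summed to 163 to 171 CPM in the controls of experiment 1 and 185 to 207 CPM with ABCC1, and of 5 tested COL1A1 (0.83), PDGFRB (0.73) and THY1 (0.17) rose, where 17.9% of all genes did. In the joint fit THY1 alone of 8 tested rose (0.35), where 8.73% of all genes did. After scaling over the expressed genes none of the 8 rose in edgeR, 2 fell in experiment 3 and 1 in the joint fit, where 2.99% and 11.1% of all genes fell, and the medians were -0.44 and -0.37. Of 10 noradrenergic markers, 2 rose and 5 fell in experiment 1, where 17.9% and 19.7% of all genes did, and their sum ran from 13532 to 14612 CPM in the controls and from 11468 to 12831 CPM with ABCC1. TH, the rate-limiting enzyme of catecholamine synthesis, rose in experiments 1 and 3 (0.46 and 0.63, adjusted p = 0.00395 and 0.0138). DBH, which makes noradrenaline, fell in both (-0.83 and -0.63, adjusted p = 1.89e-05 and 0.0453), as did PHOX2A (-0.48 and -0.68, adjusted p = 0.00746 and 0.0327). PTPRC and MARCO, markers of blood cells and macrophages, were called lower in experiment 3 and in the joint fit at levels of 0.921 to 3.82 times those of the olfactory receptor genes in experiments 2 and 3. Their part in the TFRC difference was not tested.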

How the data were processed

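RNA of 18 cultures was sequenced, 3 per line in each of 3 experiments. The authors aligned the reads to GRCh37 with STAR 2.7.3a and counted read pairs per Ensembl 74 gene with featureCounts of Subread 2.0.0, without strand and without multi-mapped reads, and the deposited files hold these raw counts. Basecalls were converted with bcl2fastq 2.18. Exogenous vector and spike-in rows were left out of the counts of genes. The labels name 2 kits for experiment 1, and the one in the study's methods was taken.

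Counts were filtered by filterByExpr (minimum count 10), scaled by TMM and fitted with the quasi-likelihood test of edgeR 4.0.16 (limma 3.58.1, R 4.3.3) in each experiment alone, over all 18 libraries with experiment as a term, with an interaction, and in experiments 2 and 3 as group means. Genes were called at a Benjamini-Hochberg adjusted p of at most 0.05 over all genes tested. CPM were computed with TMM within each experiment. The tests were checked on simulated data. Alternatives were DESeq2 1.42.0, RLE factors, other filters, a replicate block, a spread shared by all libraries, background reads as a covariate, ferritin counts summed with pseudogenes and each library left out. Scaling over expressed genes was chosen after seeing the data.

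Members and lists were chosen with earlier results of these data known. Named were all members, list genes called the same way in at least 2 experiments or in the joint fit with an absolute log2 fold change of at least 0.5, the 5 genes most and 3 least like TFRC, and the pseudogene copies with most counts, FTH1P16 and FTLP3. NCOA4 and CISD3 were not analysed here, and some list genes are not reported here. Elements were sought in 1 GENCODE 29 transcript per gene, the APPRIS principal one and then the longest. The p-values measure only the spread between these cultures, which are not stated to be independent transfections.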

Additional observations from a re-analysis of the deposited data

How the results depend on the processing

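Of the results recomputed under other settings, 1096 values stayed the same, 41 lost and 24 gained a call, 49 moved and 34 changed sign, and the cause was not tested. A tested log2 fold change stayed the same if it kept its direction and its side of the threshold. A count of genes stayed the same if it changed by no more than 1.5-fold. TFRC values between the lines have no threshold. The count of genes called in experiment 1 (6382) was 1676 with a spread shared across all libraries, where 0 of the 8 members were called and IREB2 was 0.056. In experiment 2 the count (581) was 2727 with DESeq2 (2 members called), 1086 with RLE factors, 1399 with no filter, 1364 with 10 counts in every library, 5363 with the shared spread, 12 with the background covariate and 220 with scaling over expressed genes. In experiment 3 the count (1021) was 1553 with DESeq2, 1725 with 10 counts in every library, 1562 with the shared spread, 148 with the covariate and 1941 over expressed genes. With the covariate, log2 fold changes in experiment 3 were -0.23 for FTH1, -0.065 for FTL, 0.54 for SLC40A1, -0.0072 for IREB2 and -0.43 for FBXL5, and STEAP3 in experiment 2 was -0.15. SLC40A1 was 0.0029 in experiment 3 with the shared spread, -0.039 in experiment 2 with 10 counts in every library, and -0.0020 (RLE) and -0.078 (10 counts) in the joint fit, where FTH1 was -0.021 and TFRC 1.02 with 10 counts.

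Over expressed genes TFRC was 0.75, 0.92 and 0.98 in experiments 2 and 3 and jointly, STEAP3 -0.17 and SLC40A1 -0.25 in experiment 2, and SLC40A1 -0.13 and FTH1 -0.062 jointly, with 1 member called in place of 3. Between experiments 3 and 2 that scaling gave SLC11A2 0.31 and FTH1 0.14 in the controls (2 members called in place of 4) and 0.44 and 0.30 with ABCC1. There ACO1 was -0.027 with DESeq2 and -0.026 with RLE in the controls and -0.11 with ABCC1, and SLC11A2 was 0.065 and 0.026 with 10 counts in every library. The difference between experiments (550 genes) gave 888 with DESeq2 and 356 with 10 counts. By CPM without length TFRC ranked 4, and 0 of the 5 genes most like it were shared after centring on groups.

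Leaving out 1 library gave 4663 to 7827 genes in experiment 1, 5 to 1358 in experiment 2 (5 without the third control library, 24 without the second ABCC1-overexpressing one), 394 to 2759 in experiment 3 with 0 to 2 members called (FTH1 and FTL, without the second control library), 1 to 4 members jointly, 334 to 1111 genes for the difference, and 2 to 5 members in the controls and 9086 to 16459 genes with ABCC1 between experiments 3 and 2. Ranges that crossed 0 were -0.20 to 0.22 (SLC40A1) and -0.013 to 0.22 (STEAP3) in experiment 2, -0.26 to 0.10 and -0.22 to 0.11 in experiment 3, -0.10 to 0.021 for STEAP3 jointly and -0.056 to 0.11 for ACO1 between experiments in the controls.

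Cultures were plated weekly, but the sources used here do not tie a replicate number to a week, and replicate numbers were not taken to pair the cultures, since same-numbered deviations correlated at -0.05, -0.07 and 0.10 on average in experiments 1, 2 and 3. With the replicate block 1884 genes were called in experiment 3, and FTH1 in experiment 1 was -0.31 (adjusted p = 0.0196), IREB2 jointly 0.27 (adjusted p = 0.0535) and STEAP3 between experiments in the controls -0.56 (adjusted p = 0.0462) by edgeR.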
